A study of Mus musculus with 3 samples.

Results

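The glycolysis genes of the mouse retina were followed through 3 single-cell RNA-seq libraries. The 10 genes were chosen by name and not by a measured value: *Slc2a1*, which carries glucose into the cell, the hexokinases *Hk1* and *Hk2*, the aldolases *Aldoa* and *Aldoc*, *Pgk1*, *Eno1* and *Pkm* of the lower steps, and the lactate dehydrogenase subunits *Ldha* and *Ldhb*. The choice was made with earlier results of these data known. The genes are 10 of the 19946 genes listed in at least 1 library, and each was listed in all 3.

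The libraries came from a study of the somatostatin receptor Sstr2 in retinal development. The first pooled 8 explants: CD1 wild-type retinas taken at embryonic day 14 (E14) and grown on membranes for 6 days, which the labels give as postnatal day 0, with 0, 5, 50 or 500 nM of a small-molecule Sstr2 agonist in the medium (2 explants per dose). The others each pooled 5 untreated retinas of a mixed C57BL/6 / CD1 background, taken at postnatal day 0 (P0) or postnatal day 14 (P14): 1 *Sstr2* +/+ (wild type), 2 *Sstr2* +/- (heterozygous) and 2 *Sstr2* -/- (knockout). The *Sstr2* allele is a germline allele made by genome editing in C57BL/6N mice and bred out to CD1, and the cut optic nerve leaves ganglion cells in explants without their target. Each sample is written of as 1 explant or 1 retina, although the sources do not say how many eyes each held. By the *Xist* counts given below, some samples may hold eyes of more than 1 animal. The study calls the retinas of the genotype series littermates and gives no number of litters, so p-values measure the spread between these samples only.

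Glycolysis splits glucose into pyruvate, and lactate dehydrogenase turns pyruvate into lactate, which restores the cofactor that glycolysis needs. The retina is known for aerobic glycolysis: photoreceptors send most of their glucose to lactate although oxygen is at hand, and dividing progenitors do so as well. Several steps are served by a choice of isoenzymes. LDHA favours lactate production and LDHB is the form common in oxidative tissues. HK2 is the inducible hexokinase of tumours, muscle and photoreceptors while HK1 is the general form of brain. Aldolase C is a brain isoform, and PKM is made as splice forms that a 3' count does not separate. Many of these genes are textbook targets of the hypoxia factor HIF1.

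The promoters of 3 members are shown: those of the lactate dehydrogenase pair, whose levels ran opposite ways across cell types, and that of *Hk2*, whose level in P14 cones was above that of every other cell type. Each is the 250 bases before the RefSeq start site on GRCm38.p6, read 5′ to 3′ on the gene's own strand. Capitals mark each ACGTG or GCGTG, the core letters of the HIF1 motif, on either strand. The windows are chr7:46845554-46845803 (plus strand) for *Ldha*, chr6:142507958-142508207 (minus strand) for *Ldhb* and chr6:82774455-82774704 (minus strand) for *Hk2*.
Ldha: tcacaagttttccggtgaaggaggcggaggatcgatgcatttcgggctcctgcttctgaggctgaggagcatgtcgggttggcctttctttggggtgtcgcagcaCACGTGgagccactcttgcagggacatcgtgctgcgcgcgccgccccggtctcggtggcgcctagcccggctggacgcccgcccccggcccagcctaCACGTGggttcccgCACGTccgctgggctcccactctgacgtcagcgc
Ldhb: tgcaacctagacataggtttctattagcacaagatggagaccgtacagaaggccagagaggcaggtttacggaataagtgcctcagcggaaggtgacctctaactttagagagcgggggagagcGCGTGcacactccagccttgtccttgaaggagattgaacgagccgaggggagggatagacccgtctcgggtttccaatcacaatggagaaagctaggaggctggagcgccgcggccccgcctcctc
Hk2: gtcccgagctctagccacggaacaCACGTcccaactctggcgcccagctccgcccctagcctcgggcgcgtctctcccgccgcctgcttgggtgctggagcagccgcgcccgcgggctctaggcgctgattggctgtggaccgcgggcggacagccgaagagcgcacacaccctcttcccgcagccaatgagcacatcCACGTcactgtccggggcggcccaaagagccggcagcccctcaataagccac
The *Ldha* window held such letters at 3 places, the *Hk2* window at 2 and the *Ldhb* window at 1. Over all members, 8 of 10 windows held ACGTG or GCGTG, against 38.6% of the 32851 windows of the table. The missing members were *Pkm* and *Hk1*. ACGTG alone was in 16.6% of all windows and GCGTG in 28.2%, and ACGTG also lies inside the E-box CACGTG that other factors bind. TAATCC, the core letters bound by the photoreceptor factors *Crx* and *Otx2*, was in 0 of 10 member windows and in 6.25% of all windows. A match describes letters in a window and is not a binding site.

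The deposited tables held 5607 explant cells, 5706 P0 cells and 3298 P14 cells, each with the authors' cell type. An explant held 318 to 1075 cells and 1281682 to 4237324 unique molecular identifiers (UMIs, 1 per counted transcript), a P0 retina 1018 to 1254 cells and 8822880 to 10793649 UMIs, and a P14 retina 304 to 1000 cells and 1266730 to 5886669 UMIs. UMIs were summed over the cells of a type in each explant or retina, and a level is the gene's UMIs per 1000000 UMIs of that sum (CPM). A sum needed 10 cells, which left out explant 2 at 0 nM for ganglion cells and both heterozygous retinas for P14 amacrine cells. In each library the 5 cell types had their own markers highest. The libraries shared 4 to 9 cell barcodes with each other. *Xist*, the RNA of the inactive X, was counted in 98.3% to 99.3% of cells in both 500 nM explants and explant 1 at 5 nM but in 57.7% to 62.4% in the other explants, so dose and the sex of the cells were not balanced. It was counted in 99.4% of cells in heterozygous retina 1 and knockout retina 2 at P0 and in 72.7% in heterozygous retina 2 at P14, and in at most 4.3% in the others. The values of 57.7% to 62.4% and 72.7% lie between these extremes, as cells of both sexes in 1 sample would give. The upper extreme comes from explants and P0 retinas alone. The P14 retina at 72.7% had a median of 3381 UMIs per cell, and incomplete counting of *Xist* in female cells would also give a value below that extreme. Whether those samples pooled animals was not tested. Sstr2 did not check the genotype labels: in P0 neurogenic progenitors it stood at 112 CPM in the wild type, 189 and 248 in heterozygous and 294 and 375 in knockout retinas.

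Cell types were clustered by the authors on these same counts, so the levels by cell type are a description with no test. Ranges are over explants or retinas, and a single value for a cell type is the mean over them unless named otherwise.

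**Figure D1:**
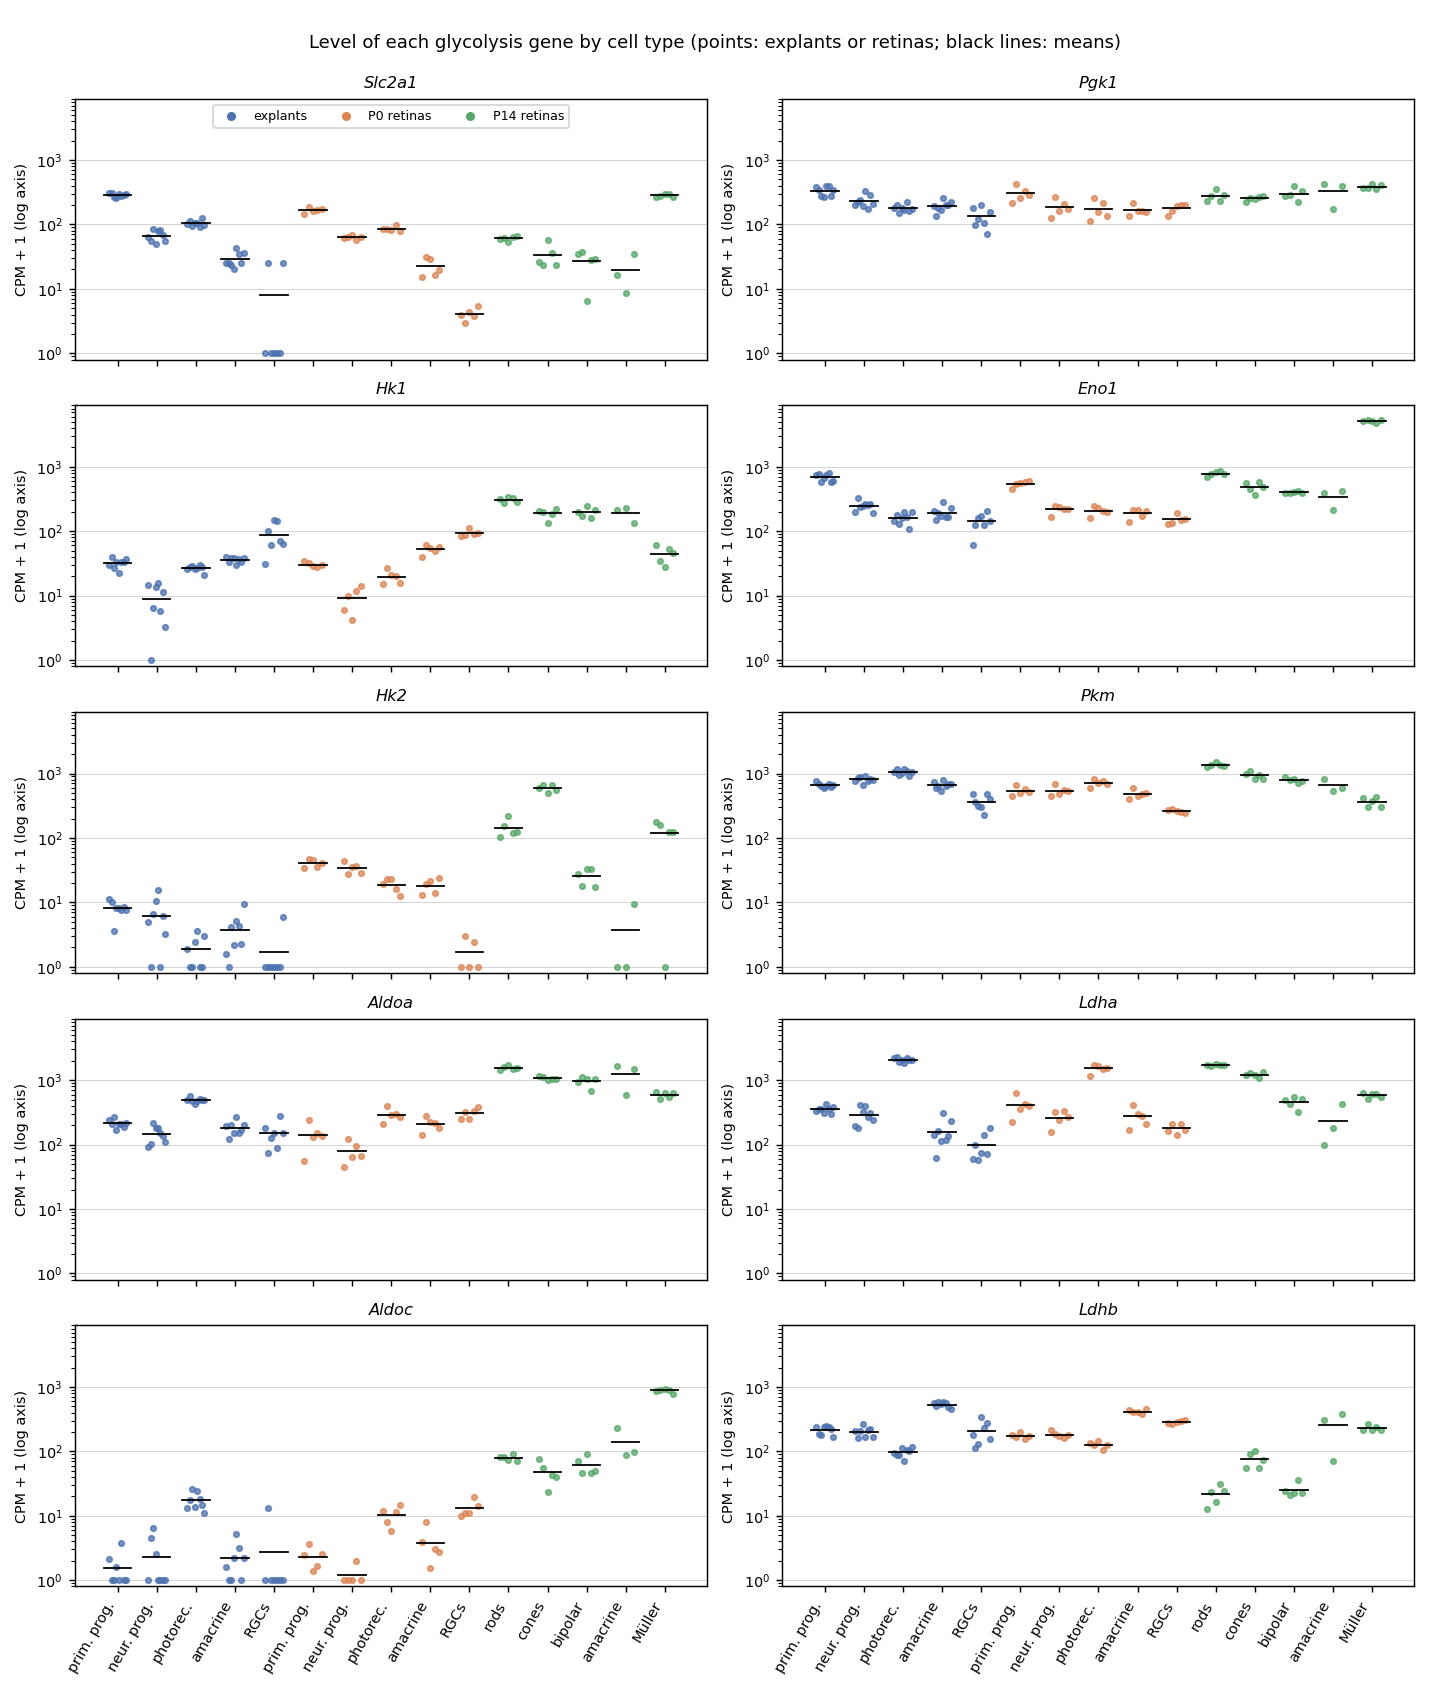
Level of each of the 10 genes in every cell type, in CPM plus 1 on a log axis. Points are explants (n = 8, 7 for RGCs), P0 retinas (n = 5) and P14 retinas (n = 5, 3 for amacrine cells), and black lines are means. *Ldha* stands highest in photoreceptors of all ages, *Ldhb* in amacrine cells, *Hk2* in P14 cones, *Eno1* and *Aldoc* in P14 Müller glia, and *Slc2a1* in primary progenitors before P14 and in Müller glia at P14.

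The glucose transporter transcript stood highest in primary progenitors and Müller glia. *Slc2a1* (chr4:119108711-119137983) encodes GLUT1, the transporter that brings glucose from the blood side into retinal cells. In explant primary progenitors it was between 258 and 309 CPM (median 292), above every other explant cell type, with medians of 103 in photoreceptors, 65.7 in neurogenic progenitors and 24.2 in amacrine cells, and with no UMI in 5 of 7 ganglion cell sums. P0 retinas had the same order with no overlap between neighbours, from 166 CPM in primary progenitors to 85.0, 62.1, 21.5 and 3.13. At P14 Müller glia held 283 CPM (268 to 300) against 59.7 in rods and at most 32.2 on average in cones, bipolar and amacrine cells. *Slc2a1* is also a blood vessel gene. Of 5 vessel and pericyte markers, summed at 901 to 1080 CPM in P14 Müller glia against 12 to 25 in rods, *Kdr* made up 875 of the mean, followed by *Pdgfrb* at 59.2, *Rgs5* at 37.5, *Cldn5* at 23.0 and *Pecam1* at 4.82. The medians of *Rgs5* and *Cldn5* over retinas were 0. The list was also highest in primary progenitors, at a mean of 230 CPM in explants (12.9 to 59.9 in the other types) and 194 at P0 (5.86 to 97.4), where *Kdr* held 224 and 188 of it. Its part in the *Slc2a1* levels was not tested.

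The hexokinases had different orders of cell types. *Hk1* (chr10:62268855-62379908) was low in progenitors and photoreceptors at birth. At P0 ganglion cells had 92.7 CPM, amacrine cells 51.4, primary progenitors 29.4, photoreceptors 18.6 and neurogenic progenitors 8.15, with no overlap between neighbours. At P14 rods led with 306 CPM (273 to 337), bipolar, amacrine and cone levels overlapped, with means between 188 and 195, and Müller glia had 43.6. *Hk2* (chr6:82725025-82774454) ran otherwise. In cones it was 594 CPM in the wild type, 657 and 495 in heterozygous and 671 and 560 in knockout retinas. In rods the same retinas had 103, 150 and 214, and 119 and 122. Every cone value was above every rod value, with 11 to 34 cones per retina. In Müller glia *Hk2* stood at 173, 160, 0, 125 and 123 CPM in the same order. The 0 came from the 14 cells of heterozygous retina 2, where an exact binomial interval reaches 24.9 CPM, and intervals here cover counting error only. Bipolar cells had 24.7 CPM and amacrine cells 2.78.

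*Aldoc* marked Müller glia. Aldolase cleaves the 6-carbon sugar into 3-carbon sugars. *Aldoa* (chr7:126795234-126800751, with a second annotated gene of the same symbol just upstream at chr7:126800790-126809108) was broad. It led in explant photoreceptors at 429 to 566 CPM with no overlap. At P0 ganglion cells had the highest mean (307), which overlapped photoreceptors (292). At P14 rods (1564), amacrine cells (1255), cones (1079) and bipolar cells (969) overlapped in that order, and Müller glia had the lowest mean (598). The Müller range lay below those of rods, cones and bipolar cells but overlapped that of amacrine cells. *Aldoc* (chr11:78322968-78327781) was at most 16.4 CPM on average in any explant or P0 cell type. At P14 Müller glia had 873 CPM in the wild type, 898 and 945 in heterozygous and 907 and 788 in knockout retinas, with amacrine cells next at 137 and rods at 78.8.

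*Pgk1*, *Eno1* and *Pkm* carry the later steps, of which phosphoglycerate kinase and pyruvate kinase make ATP. *Pgk1* (chrX:106187100-106203699) varied least: its highest mean was 2.53, 1.85 and 1.53 times its lowest in explants, P0 and P14, and all its neighbours in order overlapped. *Eno1* (chr4:150236721-150248879) encodes the enolase of non-neuronal cells and varied most of these 3. It led in primary progenitors, at 578 to 798 CPM in explants and 451 to 594 at P0, with no overlap with any other cell type. In P14 Müller glia it was 5065 CPM in the wild type, 5355 and 5182 in heterozygous and 4839 and 5233 in knockout retinas. Rods came next at 780 (681 to 855), and amacrine cells last at 339. *Pkm* (chr9:59656368-59679375) was highest on average in photoreceptors at each age, at 1052 CPM in explants, 717 at P0 and 1350 in P14 rods, and in P14 Müller glia it was lowest, at 366. Its photoreceptor range overlapped that of neurogenic progenitors in explants and those of both progenitor types at P0.

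*Ldha* (chr7:46841475-46855627) was the photoreceptor gene of the set. In explant photoreceptors it was 1859 to 2274 CPM, and the next type, primary progenitors, had 301 to 422. The P0 photoreceptors had 1173 to 1709, and no other P0 cell type passed 631. Rods at P14 had 1676 to 1790, cones 1066 to 1317, Müller glia 582 on average and bipolar cells 458. *Ldhb* (chr6:142490249-142507957) ran the other way. It led in amacrine cells, at 449 to 581 CPM in explants and 377 to 452 at P0, and was lowest in photoreceptors, at 95.9 and 127. At P14 amacrine cells (252) and Müller glia (229) overlapped at the top, cones had 74.6, and bipolar cells (24.3) and rods (20.7) overlapped at the bottom.

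Some of these values have a known limit. The sums were not corrected for free RNA in the droplets in any library. Summed over 6 primary progenitor markers, P0 photoreceptors held 1551 CPM (1172 to 2036) and P0 primary progenitors 5677. Explant photoreceptors held 271 and P14 rods 57.1. The part of these markers' cells or RNA in the P0 photoreceptor levels, and in their ratios to explants and P14, was not tested. At P14, summed over 6 rod markers, rods held 34899 CPM, cones 11417, bipolar cells 3372, Müller glia 2188 and amacrine cells 1518. The part of this signal in the levels, ratios and shares of the other P14 types was not tested. Explant ganglion cell sums held 2343 CPM of their own markers, 1211 of amacrine markers and 426 of primary progenitor markers. P0 ganglion cells held 7414, 533 and 36.0. The study describes its explants as lacking viable ganglion cells, and the part of other cells in these explant sums was not tested. Over the last 500 bases, *Ldha* matched *Gm11814* and *Ldha-ps2*, *Ldhb* matched *Gm5514*, *Pkm* matched *Gm6560* and *Gm6992*, and *Eno1* matched *Eno1b* and *Gm4735*, at 98% identity or more over at least 90 bases, so the counts of these 4 members are uncertain.

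The isoenzyme pairs are given as the share of 1 gene in the UMIs of its pair. Each transcript gives at most 1 UMI from its 3' end, so UMIs were not scaled by length. The lactate dehydrogenase pair separated photoreceptors from the rest at birth. *Ldha* made up 94.5% to 96.4% of the pair in explant photoreceptors and 89.8% to 93.5% at P0. Primary progenitors had 62.2% and 68.3% on average and neurogenic progenitors 58.2% in both libraries. Amacrine cells were at the other end, at 22.2% (10.8% to 34.8%) in explants and 39.0% at P0, next to ganglion cells at 33.1% and 38.3%.

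At P14 rods had 98.3% to 99.3% *Ldha*, and bipolar cells (94.7%) were at the level of cones (94.3%), while Müller glia had 71.7% (65.6% to 74.4%). The bipolar, cone and Müller sums held the rod markers given above, whose part in these shares was not tested. Amacrine cells ran from 24.2% to 71.9% in 3 retinas. Those sums rested on 15 to 23 cells each and also held the horizontal cell markers *Lhx1* (298 CPM), *Onecut1* (75.2 CPM) and *Onecut2* (361 CPM). Beside 2251 CPM of amacrine markers they held 1518 CPM of rod markers (656 to 2318) and 846 CPM of ganglion cell markers. The part of these other markers' cell types in the result was not tested.

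The share of *Hk2* in the hexokinase pair split the photoreceptors. P14 cones had 71.7% to 78.6% *Hk2* and rods 25.0% to 38.9%, with no overlap, and bipolar cells had 11.3%. Müller glia had a median of 73.3%, with 1 retina at 0. P0 primary progenitors had 57.4%, neurogenic progenitors 80.1% and ganglion cells 0.77%. For the aldolases, *Aldoc* was 55.5% to 63.8% of the pair in Müller glia. P14 amacrine cells had 10.3% and no other cell type averaged above 5.88%.

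**Figure D2:**
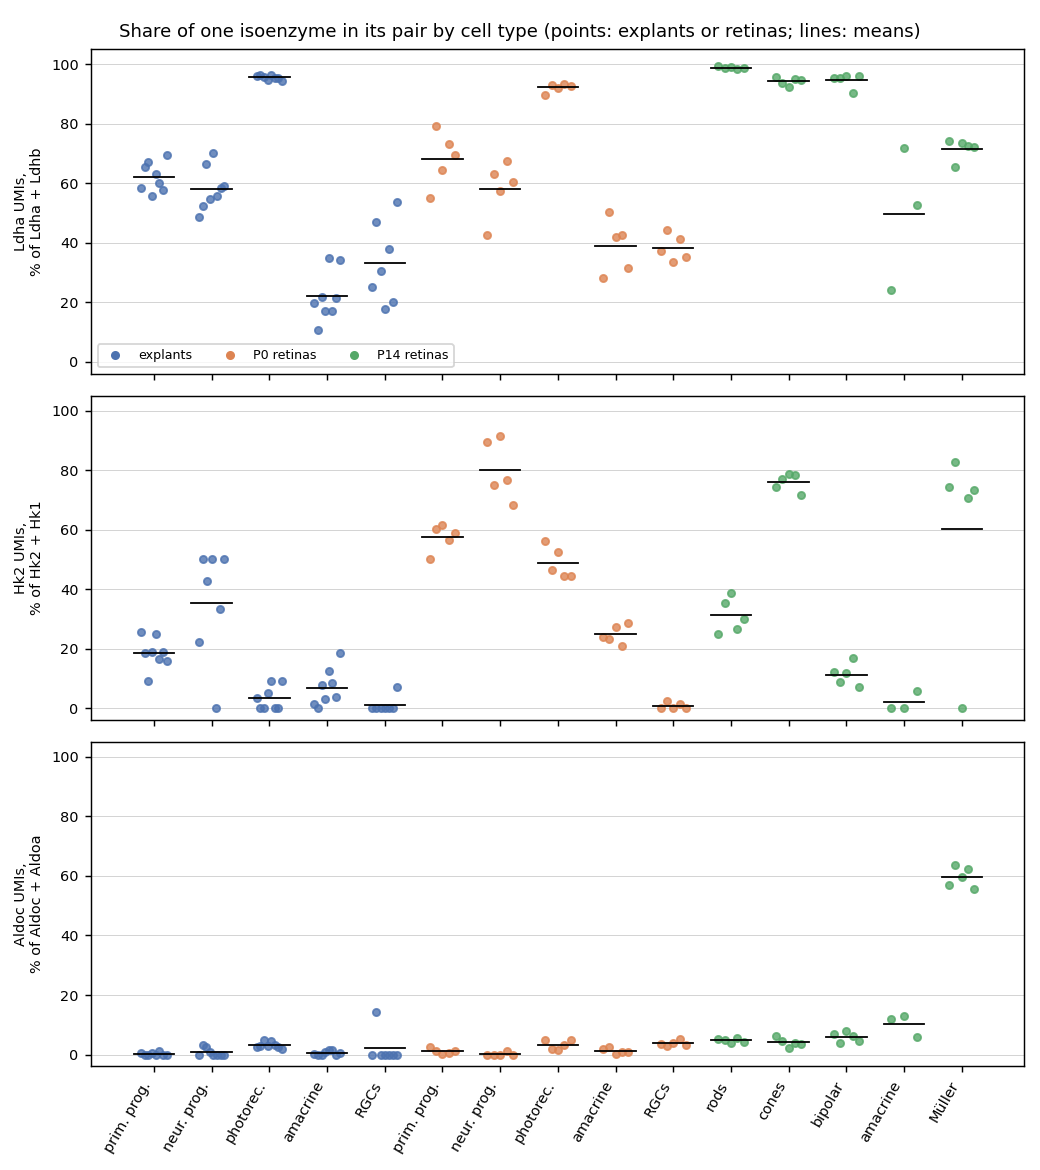
Share of *Ldha*, *Hk2* and *Aldoc* in the UMIs of their isoenzyme pairs (percent, vertical axes) by cell type. Points are explants or retinas and lines are means. Photoreceptors stand near 90% or above for *Ldha* in every library, cones stand above rods for *Hk2*, and only Müller glia exceed 50% for *Aldoc*.

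Summed over the 10 genes, P14 Müller glia held 8622 CPM (8424 to 8724) and rods 6303 (5887 to 6900), followed by cones at 4902, amacrine cells at 3409 and bipolar cells at 3253, of which the last pair overlapped. Before that age the mean sum was highest in photoreceptors, at 4199 CPM in explants and 3169 at P0, and lowest in ganglion cells, at 1185 and 1465. At P0 the photoreceptor range overlapped that of primary progenitors, and the ganglion cell range those of neurogenic progenitors and amacrine cells. *Eno1* alone gave 5135 of the Müller sum, whereas *Ldha*, *Aldoa* and *Pkm* gave most of the rod sum.

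Within a library the same cell types were set against each other by whether their ranges overlapped. Log2 ratios and folds of mean levels have 10 CPM added to each mean, and with cell types fixed on the same counts they describe and do not test. Explant photoreceptors had 4 members above primary progenitors with no overlap (log2 ratio of *Ldha* 2.52, *Aldoc* 1.32, *Aldoa* 1.18 and *Pkm* 0.66) and 4 below (*Eno1* -2.05, *Slc2a1* -1.39, *Ldhb* -1.08 and *Pgk1* -0.86), where 37.8% of all 9113 genes compared did not overlap. *Hk1* overlapped, and *Hk2* was left out because it reached 10 CPM on neither side. At P0 only *Ldha* was above among the 10 members (1.89), and *Eno1* (-1.36), *Slc2a1* (-0.89), *Hk2* (-0.84), *Hk1* (-0.46) and *Ldhb* (-0.43) were below, with 57.4% of all genes not overlapping. Amacrine cells had more *Ldhb* than primary progenitors in both libraries, by 1.28 in explants (36.1% of all genes not overlapping) and 1.20 at P0 (66.6%), and less *Slc2a1*, by -2.97 and -2.48. *Eno1* and *Pgk1* were also lower without overlap in both, and at P0 *Hk1* was higher and *Hk2* lower. In all, 1 member was higher and 3 lower in explants, and 2 were higher and 4 lower at P0. Beside these shares of all genes, the counts are not read as a result about the members.

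Rods differed from their P14 neighbours in most members. Against bipolar cells, 7 members were higher without overlap, from *Hk2* (2.13) and *Ldha* (1.89) down to *Hk1* (0.62), beside 16.4% of all genes in that direction. Against cones, *Hk2* (-2.00) and *Ldhb* (-1.46) were lower and *Eno1* (0.68), *Hk1* (0.67), *Aldoa* (0.53), *Pkm* (0.52) and *Ldha* (0.50) higher, beside 20.1% either way. Against Müller glia, *Hk1* (2.56), *Pkm* (1.85), *Ldha* (1.55) and *Aldoa* (1.37) were higher and *Aldoc* (-3.33), *Ldhb* (-2.97), *Eno1* (-2.70), *Slc2a1* (-2.07) and *Pgk1* (-0.47) lower, beside 57.4%. *Hk2* overlapped there (0.27).

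The photoreceptors of P0 retinas were set beside P14 rods and cones. Age and library cannot be told apart, so ranges are given and no test. Ratios and folds here again have 10 CPM added to each mean, which makes differences that involve low levels look smaller. *Hk1* was 14.4 to 25.7 CPM in P0 photoreceptors and 273 to 337 in P14 rods, a log2 ratio of 3.47. *Hk2* was between 11.5 and 22.3 CPM at P0, between 103 and 214 in rods (5.45-fold) and between 495 and 671 in cones (21.7-fold). *Aldoa* was 5.22-fold, *Aldoc* 4.58-fold, *Eno1* 3.66-fold and *Pkm* 1.87-fold higher in rods. *Ldhb* was 103 to 146 CPM at P0 and 11.6 to 30.3 in rods, a ratio of 0.22. *Slc2a1* had a ratio of 0.73 in rods. *Ldha* had 1.13 and *Pgk1* 1.56, with overlapping ranges.

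In all, 6 members were higher in rods than in any P0 photoreceptor sum, beside 24.2% of all genes, and 2 were lower, beside 36.0%. Cones had 5 higher (16.4% of all genes) and 2 lower (24.2%), and there *Ldha*, *Pkm* and *Pgk1* overlapped. In amacrine cells, *Aldoc* (log2 ratio 3.52), *Aldoa* (2.55) and *Hk1* (1.71) were higher at P14 and *Hk2* (-1.09) and *Ldhb* (-0.70) lower, beside 45.9% of all genes either way.

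**Figure D3:**
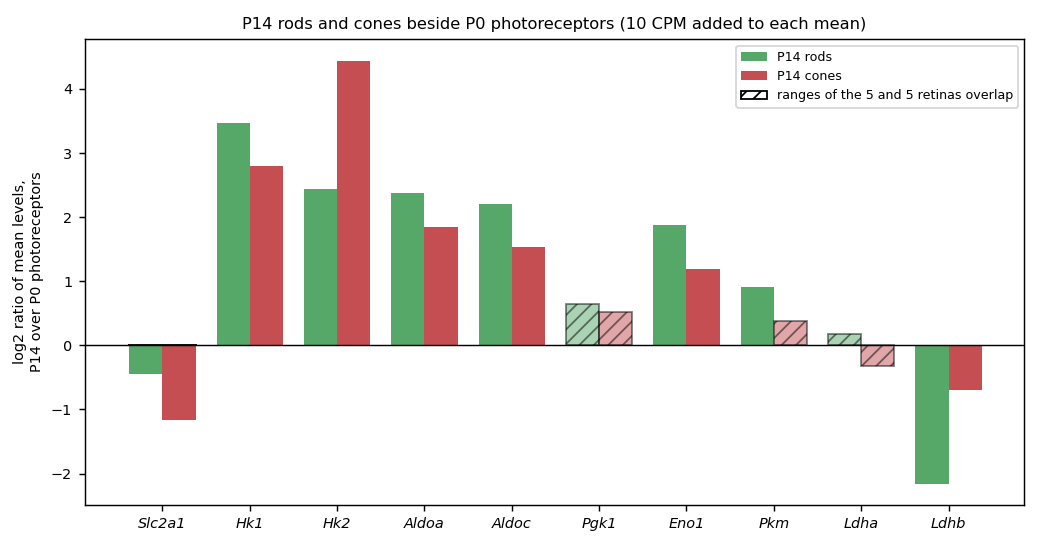
Log2 ratio of mean levels (10 CPM added), P14 rods (green) or cones (red) over P0 photoreceptors, for the 10 genes. Hatched bars mark overlapping ranges of the 5 and 5 retinas. *Hk1* has the highest bar in rods (3.47) and *Hk2* in cones (4.44), and *Ldhb* the lowest in rods (-2.16).

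Cultured explants were set beside P0 retinas, which are of the same nominal age. Explants of all doses, most of them with agonist, were set beside P0 retinas of all genotypes, most of them carriers of the *Sstr2* allele. Culture, strain and library cannot be told apart, and agonist, genotype and the share of cells with *Xist* also differed between the sets. *Hk2* was the member that differed in most cell types: it was 2.62 to 10.2 CPM in explant primary progenitors and 33.4 to 46.5 at P0 (log2 ratio 1.54), and it was higher at P0 without overlap in neurogenic progenitors (1.52), photoreceptors (1.36) and amacrine cells (1.09) too. The share of all genes higher at P0 without overlap was 11.5%, 6.15%, 10.3% and 7.76% in these cell types. *Slc2a1* was lower at P0 in primary progenitors (-0.75), as were 15.3% of all genes. In photoreceptors *Aldoa* (-0.74), *Pkm* (-0.55) and *Ldha* (-0.44) were lower at P0, where 12.6% of all genes were. No member separated the libraries in ganglion cells, where 11.3% of all genes did. The explant sums there held 10 to 61 cells and 33773 to 206171 UMIs each, so their ranges were wide. Overlap in this cell type therefore does not show equal levels.

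The agonist series asked whether Sstr2 stimulation changed these genes. For 500 against 0 nM, edgeR's quasi-likelihood test on summed UMIs, with Benjamini-Hochberg adjustment over all genes of a cell type, called 0 of 38 member tests over 5 cell types, with 6 at an unadjusted p under 0.05 (6.4% of 31814 tests of all genes were). DESeq2 called 0 as well. Leaving out 1 explant at a time, the only members edgeR called in any fit were *Ldha* in amacrine cells and *Eno1* in primary progenitors. The share of all genes called in those fits was not set beside them. *Hk2* passed the filter on low counts in no explant cell type and *Aldoc* in photoreceptors alone. Among all genes edgeR called 41 higher and 21 lower, which is 0.317% of the genes tested in primary progenitors, 0.0988% in neurogenic progenitors, 0.0941% in photoreceptors 0.269% in amacrine cells and 0 in ganglion cells.

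*Eno1* in primary progenitors had the lowest adjusted p. It was 751 and 771 CPM at 0 nM, 589 and 667 at 5 nM, 758 and 798 at 50 nM, and 578 and 598 at 500 nM. Both 500 nM explants lay below both at 0 nM, but so did both at 5 nM while both at 50 nM did not (log2 fold change -0.42 ± 0.11 SE, edgeR adjusted p = 0.090). With *Xist*-positive cells only, the fold change was -0.29 and the edgeR adjusted p 0.568. The 8 members tested in that cell type all had a negative fold change, with a median of -0.21 beside 0.01 over all genes.

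*Ldha* in neurogenic progenitors was lowest in the untreated explants. It was 196 and 179 CPM at 0 nM, 413 and 315 at 5 nM, 399 and 267 at 50 nM, and 311 and 241 at 500 nM, so every treated explant was above both untreated ones. How many of all genes show this order was not counted, so it is not read as a result about *Ldha*. These values come from all cells, and the sex of the cells was not balanced over dose. The difference at 500 nM missed the threshold (0.53 ± 0.19 SE, edgeR adjusted p = 0.877). In amacrine cells it was 139 and 61.9 CPM at 0 nM, and 135 and 234 at 500 nM, which overlap (0.69 ± 0.23, edgeR adjusted p = 0.541, and 0.81 with adjusted p = 0.437 in *Xist*-positive cells). In explant photoreceptors *Ldha* was 2200 and 2274 CPM at 0 nM and 2078 and 2029 at 500 nM (-0.10 ± 0.09). The effect on *Ldha* in neurogenic less primary progenitors was 0.59 (edgeR interaction test, adjusted p = 0.588), and 0 members passed that test, beside 0.13% of all genes. A slope on dose over all 8 explants also gave 0 member calls.

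**Figure D4:**
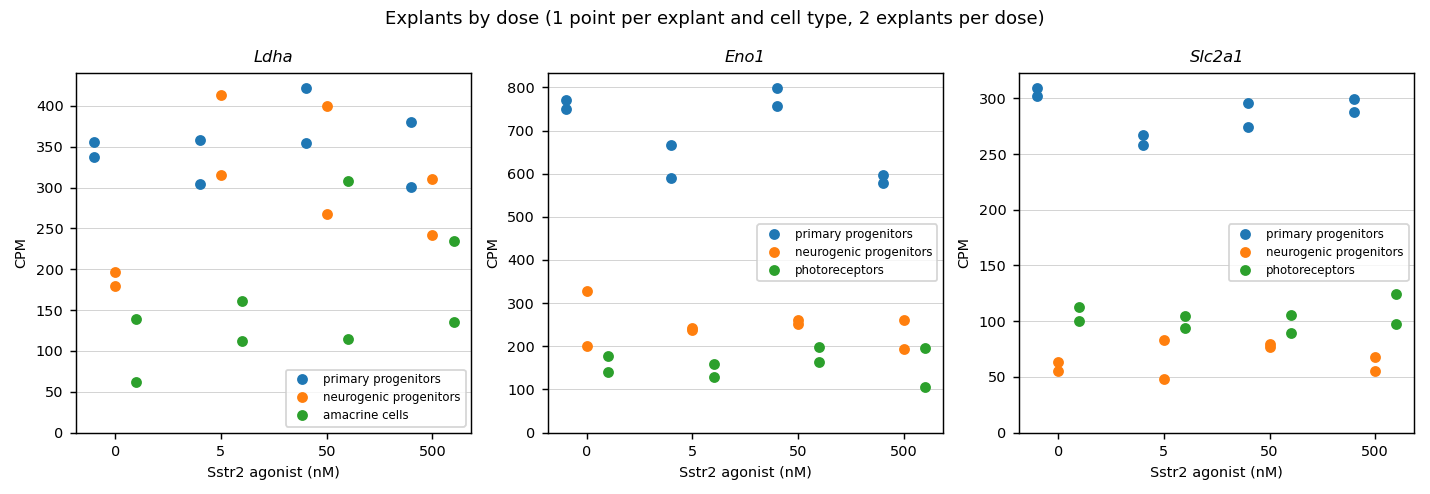
Levels of *Ldha*, *Eno1* and *Slc2a1* (CPM, vertical axes from 0) against agonist dose in nM, 1 point per explant and cell type, 2 explants per dose. *Ldha* in neurogenic progenitors is lower at 0 nM (196 and 179) than at any other dose, and *Eno1* in primary progenitors is lower at 5 and 500 nM than at 0 and 50 nM.

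The genotype series at P0 asked what loss of *Sstr2* did. Between the retinas labelled knockout and wild type, edgeR called 0 of 46 member tests, with 17 at an unadjusted p under 0.05 (4.78% of 48419 tests of all genes were), and DESeq2 called 0. Leaving out 1 heterozygous or knockout retina at a time, edgeR called members, most often *Ldha* or *Aldoa* and most without knockout retina 2. The share of all genes called in those fits was not set beside these calls, so they are not read as particular to the members. The filter on low counts left out *Aldoc* in neurogenic progenitors and *Aldoc*, *Hk2* and *Slc2a1* in ganglion cells. The share of all genes called was 0.0251% in primary progenitors, 0.0334% in neurogenic progenitors, 0.00987% in photoreceptors, 0.00964% in amacrine cells and 0.658% in ganglion cells. A single wild-type retina stood on that side, so the spread among wild-type retinas could not be measured. It lay below the other 4 retinas in 30 of 46 member sums, beside 21.5% of all genes, and above them in 3, beside 18.7%. It was lowest for 7 of 10 members in primary progenitors, 5 of 9 in neurogenic progenitors, 6 of 10 in photoreceptors, 8 of 10 in amacrine cells and 4 of 7 in ganglion cells. The shares of all genes are pooled over cell types, so these counts by type have none of their own beside them.

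*Ldha* in neurogenic progenitors was 155 CPM in the wild type, 321 and 237 in heterozygous and 330 and 267 in knockout retinas. The wild type was below all 4 carriers of the allele, and heterozygous and knockout retinas overlapped (knockout against wild type 0.94 ± 0.19 SE, edgeR adjusted p = 0.276). The study itself picked *Ldha* from these neurogenic cells, so its direction is not independent evidence. In primary progenitors it was 220, then 631 and 355, then 419 and 400 (0.87 ± 0.28, edgeR adjusted p = 0.993). In photoreceptors, where the gene is highest, it was 1173, then 1709 and 1684, then 1484 and 1571 (0.37 ± 0.10). Amacrine cells had 170, then 411 and 295, then 280 and 208 (0.53 ± 0.20). Its counterpart *Ldhb* was not lowest in the wild type in those types: neurogenic progenitors had 210, then 187 and 175, then 159 and 176 (-0.34 ± 0.13, edgeR adjusted p = 0.929).

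Other members also had the wild-type retina at the bottom. *Aldoa* in primary progenitors was 55.7 CPM in the wild type, 238 and 130 in heterozygous and 148 and 134 in knockout retinas (1.32 ± 0.32, edgeR adjusted p = 0.993). *Eno1* there was 451, then 533 and 567, then 573 and 594 (0.35 ± 0.09), and *Pgk1* 217, then 425 and 258, then 334 and 288 (0.50 ± 0.25). Over all 46 member tests 35 fold changes were positive, with a median of 0.28. These tests repeat the same genes over cell types of the same retinas, and all share the single wild-type retina. The share of positive fold changes over all genes was not set beside the count. For *Slc2a1* and the hexokinases the order differed between cell types. The wild type was lowest for all 3 in amacrine cells (*Slc2a1* 14.3 against 15.6 to 30.8), for *Slc2a1* and *Hk2* in primary progenitors and for *Hk1* in photoreceptors and ganglion cells. It was in the middle for *Slc2a1* in photoreceptors, at 85.0, then 84.1 and 80.2, then 97.6 and 77.9, and highest for *Hk1* in primary progenitors (33.2 against 26.5 to 30.7) and for *Hk2* in neurogenic progenitors (42.1 against 26.1 to 35.5).

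Against the heterozygous retinas, the only P0 comparison with 2 retinas on each side, edgeR called 0 of 46 member tests, with 7 at an unadjusted p under 0.05 (4.91% of all genes' tests), and DESeq2 called 0. The share of all genes called was 0.00838% in primary progenitors, 0.0111% in neurogenic progenitors, 0.0592% in photoreceptors, 0.0386% in amacrine cells and 0.586% in ganglion cells. This comparison shares the knockout retinas with the one above. Of 46 fold changes 11 were positive, with a median of -0.13. No share of positive fold changes over all genes stands beside this count either. *Ldha* in amacrine cells had the lowest unadjusted p of the members (-0.52 ± 0.15, edgeR adjusted p = 0.924). Heterozygous retina 1 was the highest of the 5 in 27 of 46 member sums, beside 21.4% of all genes. It had the most UMIs per cell, a median of 8541 against 7258.5 to 7649.5, and was 1 of the 2 retinas with *Xist* in nearly all cells; the part of either in the result was not tested. The effect in neurogenic less primary progenitors passed for 0 members (0.0688% of all genes), with 0.05 for *Ldha* (edgeR interaction test, adjusted p = 1.000).

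**Figure D5:**
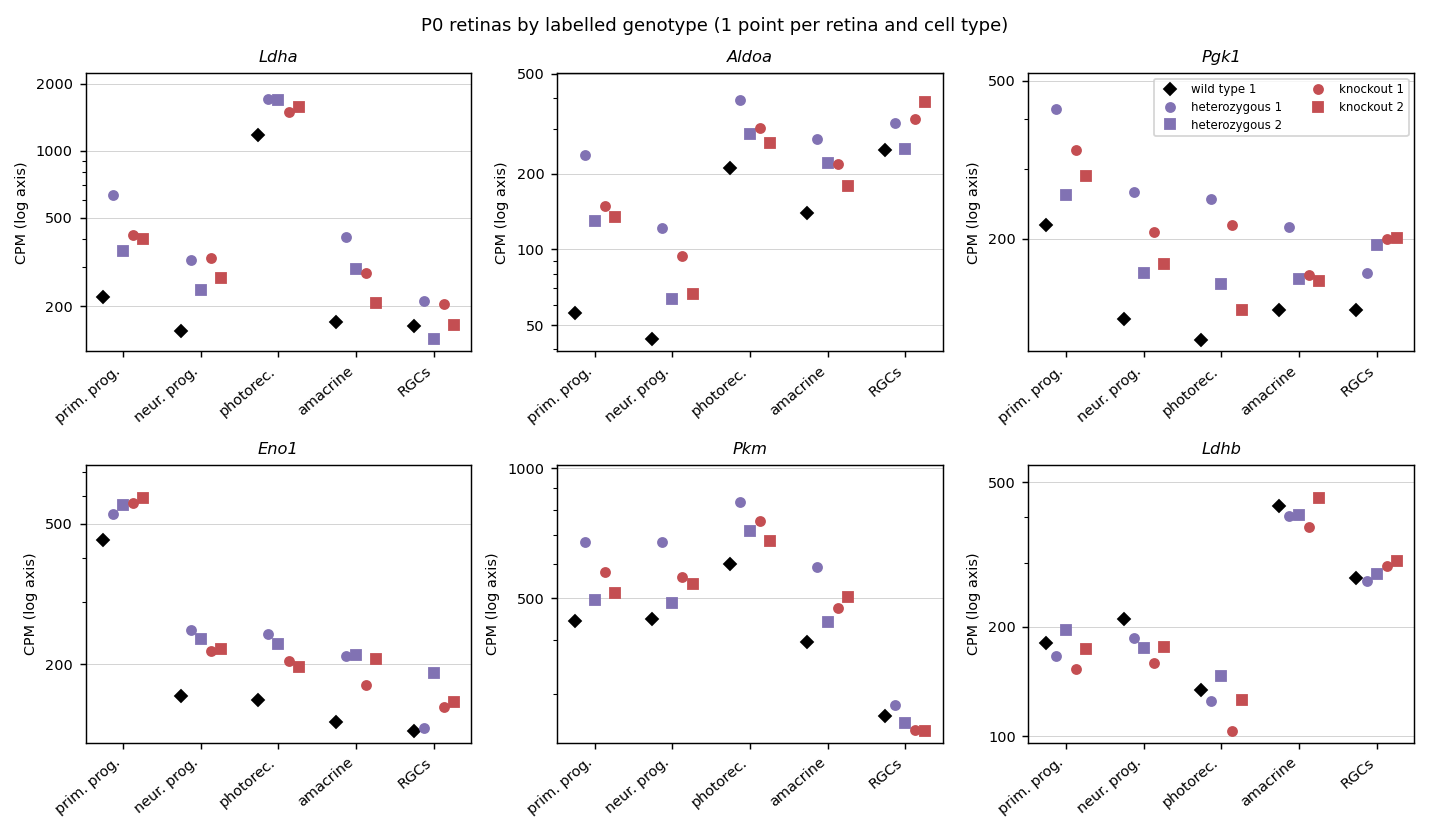
Levels of 6 members at P0 (CPM, log axes) by cell type, 1 point per retina: wild type as black diamonds, heterozygous retinas in purple and knockout retinas in red. The wild-type retina is below the other 4 for *Ldha* in primary and neurogenic progenitors, photoreceptors and amacrine cells, and *Ldhb* shows no such order.

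At P14 the glycolysis genes did not pass the test between genotypes either. Between knockout and wild type edgeR called 0 of 48 member tests, with 2 at an unadjusted p under 0.05 (2.79% of 37662 tests of all genes), and DESeq2 called 0. Against heterozygous retinas it called 0 of 40, with 1 (3.4% of 32170), and DESeq2 0. Without heterozygous retina 1 edgeR called *Hk2* in rods and Müller glia, and the share of all genes called in that fit was not set beside it. For knockout against wild type the share of all genes called was 0.0211% in rods, 0.412% in cones, 0.091% in bipolar cells, 0.0567% in Müller glia and 0 in amacrine cells, and for knockout against heterozygous it was 0.0106% in rods, 0.0785% in cones, 0.137% in bipolar cells and 0.102% in Müller glia. The wild type was lowest of 5 in 8 of 40 member sums, beside 12.1% of all genes, with 6 of them in rods, and highest in 7, beside 15.9% of all genes, with 4 of them in Müller glia. These shares too are pooled over cell types, with none for rods or Müller glia alone. *Ldha* in rods was 1708 CPM in the wild type, 1676 and 1790 in heterozygous and 1712 and 1742 in knockout retinas (0.04 ± 0.11). *Ldha* in Müller glia was 624, then 512 and 601, then 621 and 554 (-0.09 ± 0.21).

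Both tests past an unadjusted 0.05 against the wild type were in rods. *Ldhb* there was 11.6 CPM in the wild type, 22.2 and 15.6 in heterozygous and 30.3 and 23.5 in knockout retinas (1.22 ± 0.34, edgeR adjusted p = 1.000). *Eno1* was 681, then 762 and 824, then 855 and 777 (0.28 ± 0.12, edgeR adjusted p = 1.000). Against heterozygous retinas the test was *Hk2* in rods, at 150 and 214 CPM in heterozygous and 119 and 122 in knockout retinas (-0.59 ± 0.17, edgeR adjusted p = 1.000). In cones, where *Hk2* is highest, knockout against wild type was 0.05 ± 0.24. The effect in rods less bipolar cells passed for 0 members and for 0 of 10864 genes.

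The rest of the pathway was taken from lists of other glycolysis enzymes, glucose and lactate transport, regulators of glycolysis and pyruvate, hypoxia targets outside glycolysis, and the pentose phosphate branch. No gene of these lists passed edgeR's adjusted threshold in any of the 5 comparisons with all samples, and counts at an unadjusted p under 0.05 ran from 0 to 7 per list. Leaving out 1 sample at a time, edgeR called some, and the share of all genes called in those fits was not set beside them. These were *Gpi1* (-0.59, edgeR adjusted p = 0.025) and *Taldo1* (-0.58, adjusted p = 0.0042) in explant primary progenitors without explant 1 at 500 nM, *Tpi1* in P0 amacrine cells against the wild type without knockout retina 2 (0.67, edgeR adjusted p = 0.026), and *Pfkp* in P14 bipolar cells against heterozygous retinas without knockout retina 2 (1.04, edgeR adjusted p = 0.0082). At P0, knockout against wild type, 36 of 45 tests of other glycolysis enzymes were positive (median 0.27, 7 at an unadjusted p under 0.05) and 32 of 43 of hypoxia targets (median 0.30, 5 unadjusted). Regulators had 31 of 47 (0.05), the pentose phosphate branch 20 of 32 (0.04) and glucose and lactate transport 14 of 21 (0.14). Medians over all genes were 0.00 to 0.01, and the share of positive fold changes over all genes was not set beside these counts. Against heterozygous retinas the list medians were, in the same order, -0.12, -0.14, -0.02, 0.01 and -0.10. The single wild-type retina enters every one of the former.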

How the data were processed

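Cells of 3 MULTI-seq libraries were used, in which lipid-tagged barcodes mark the sample of each cell. The 10x Chromium 3' libraries were aligned and counted by the authors with Cell Ranger 3.1.0 on mm10 (per the submitters' processing notes), samples were assigned with deMULTIplex, and clusters were named by markers after the Seurat 3 SCT workflow. The deposited counts are the authors' whole-number UMI counts per gene and cell, not normalized. The deposited SCT values were not used. How filters on cells were set is not given in the sources used here. Groups within a library came from the condition recorded for each cell, and samples of a group were numbered in the order of their barcode names.

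UMIs were summed per explant or retina and cell type (at least 10 cells) and these sums went into edgeR 4.0.16 under R 4.3.3 (glmQLFTest, TMM, filterByExpr, Benjamini-Hochberg over all genes of a cell type, threshold 0.05), 1 fit holding every group of the library. The single wild-type retina adds nothing to the dispersion. DESeq2 1.42.0, its size factors, no filter, sums without the 5% of cells with the most UMIs (no doublet caller was run), *Xist*-positive cells, a slope on dose and leaving out each explant or retina were the alternatives. The samples hold 1266730 to 10793649 UMIs each, so precision differs between them. Genes were compared by range where the mean of either side reached 10 CPM.

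Positions came from GENCODE M21, promoters from the RefSeq table (all 10 members matched, the window used by most annotated transcripts where several were listed), and similar transcripts from blastn 2.17.0. The members and lists were chosen with earlier results of these data known. Named were all 10 members, genes of the lists that passed the threshold, the 3 of each list with the highest mean level, and for *Ldha*, *Ldhb*, *Hk2* and *Aldoc* the 3 genes of most similar pattern.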

Additional observations from a re-analysis of the deposited data

Results flagged for a closer look

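In amacrine cells 3 members had knockout retinas on opposite sides of the wild type at the 2 ages, with every knockout retina on the same side at each age. The difference between ages was not tested. How many of all genes show this pattern was not counted, so 3 of 10 is not read as a result about the members. Knockout against wild type, the log2 fold change was 0.32 at P0 and -0.55 at P14 for *Pkm*, 0.28 and -0.64 for *Pgk1*, and 0.51 and -0.71 for *Aldoa*. None passed edgeR's adjusted threshold at either age. The P14 values rest on 15 wild-type cells and 22 and 23 knockout cells, and *Aldoa* at P14 was 1665 CPM in the wild type and 582 and 1518 in the knockout retinas. Age and library cannot be told apart, and 1 wild-type retina stands at each age.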

How the results depend on the processing

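In the 5 tested comparisons the number of member tests called was 0, and it remained 0 with DESeq2, with DESeq2's size factors, without the 5% of cells with the most UMIs, in *Xist*-positive cells and for a slope on dose. Keeping all genes with a UMI gave 1 call in explants (*Ldha*, amacrine cells), 1 at P0 for knockout against wild type (*Pgk1*, photoreceptors) and 1 at P0 for knockout against heterozygous (*Ldha*, amacrine cells). Leaving out 1 sample at a time gave 0 to 2 calls in explants: 1 (*Ldha* in amacrine cells) without explant 1 at 0 nM, either 5 nM explant or either 50 nM explant, 2 (with *Eno1* in primary progenitors) without explant 1 at 500 nM, and 0 without the others. At P0 it gave 2 to 5 for knockout against wild type: 2 without heterozygous retina 1 (*Ldha* and *Aldoa* in primary progenitors), 3 without heterozygous retina 2 (also *Ldha* in neurogenic progenitors), 2 without knockout retina 1 (*Ldha* in neurogenic progenitors, *Eno1* in amacrine cells) and 5 without knockout retina 2 (*Ldha*, *Aldoa* and *Pgk1* in neurogenic progenitors, *Ldha* and *Aldoa* in amacrine cells). The adjusted p of *Ldha* in neurogenic progenitors ran from 2.4e-06 to 0.890 over all 8 of these settings, by edgeR or DESeq2. For knockout against heterozygous it gave 0 to 3 at P0 (1 without knockout retina 1, 3 without heterozygous retina 2) and 0 to 2 at P14, where both calls came without heterozygous retina 1 (*Hk2* in rods and in Müller glia, the latter against a retina with 0 UMIs), and 0 for knockout against wild type. A group left with 1 retina is assumed to vary like the others, and the cause of these calls was not tested. The share of all genes called in the fits without the filter or without a sample was not set beside the counts. They therefore do not show whether members were called more often than other genes. Of 150 ratios of levels between cell types, TMM scaling moved 12 and leaving out the largest cells moved 1, and neither reversed any. A ratio counted as moved when it shifted by at least the spread between samples. Reversal was scored only where ranges did not overlap. Leaving out 1 sample can hardly shift a mean that far and cannot reverse such an order. Its count of 0 therefore says nothing about stability. No paired analysis was possible because the deposited cell tables carry no replicate numbers that groups share. The sums held 10 to 668 cells and 33773 to 5806028 UMIs, so the precision of a level differs between them.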

Other observations

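The pathway around the 10 genes also differed by cell type. By mean level, P14 Müller glia held 3110 CPM of *Bsg*, the chaperone that brings monocarboxylate transporters to the membrane, against at most 672 in the other types, and 293 CPM of the lactate transporter *Slc16a1*, against 134 in cones, 97.7 in rods and at most 23.4 elsewhere. *Slc16a3*, the exporter of glycolytic cells, stood at 34.3 CPM at most, in P14 bipolar cells. *Gapdh*, whose enzyme makes the NADH of glycolysis, was highest in P14 rods at 2775 CPM, and *Hif1a*, the oxygen-sensing factor, was too, at 822. *Pgam1* and *Tpi1* were highest in P14 bipolar cells, at 896 and 595 CPM. *Mpc1*, part of the carrier that takes pyruvate into mitochondria, was 678 CPM in P14 amacrine cells and 60.8 in rods, while its partner *Mpc2* ran from 161 to 327 over all types.

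*Tkt*, the transketolase of the pentose phosphate branch, followed amacrine cells: 1009 CPM in explants, 478 at P0 and 956 at P14, against at most 242 in any other type. *Pgls* and *Taldo1* stood at 321 and 287 CPM at most, in explant primary and neurogenic progenitors. *Ndrg1*, a hypoxia target, was highest in explant photoreceptors (381) and P14 amacrine cells (645), with 306 in rods. *Mif* and *Higd1a*, from the same list, were highest in Müller glia, at 1574 and 353. These are levels by cell types that were clustered on the same counts, with no test.

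Over the 15 mean levels of cell types by library, among 6755 genes with a mean of at least 50 CPM in 1 of them, the genes most like *Ldha* by Pearson's r on the log2 scale were *Ebpl* (0.95), *Cln3* (0.94) and *Ptpn21* (0.94). Those most like *Ldhb* were *Pax6* (0.94), *Hmx1* (0.91) and *Pebp1* (0.91), most like *Hk2* *Smim8* (0.91), *Hist1h4c* (0.87) and *Pla2g5* (0.87), and most like *Aldoc* *Slc7a8* (0.93), *Clu* (0.93) and *Lrpap1* (0.92). *Ldha* and *Ldhb* had an r of -0.66. The points share 3 libraries and their depths, so these are descriptions without a p.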
